A study of Rattus norvegicus with 6 samples.

Results

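The genes described here are those of the collagen prolyl and lysyl hydroxylases and the proteins that work in complex with them: P4ha1, P4ha2, P4ha3, P4hb, Plod1, Plod2, Plod3, P3h1, Crtap and Ppib. They were listed by name, and 9 of the 10 had a row of their own among the 22093 genes measured. The row of Plod3 also names a microRNA gene, so Plod3 is not reported. Crtap had 2 rows, of which the brighter was used. The data are 6 Affymetrix Rat Transcriptome Arrays, each hybridised with total RNA from the Achilles tendon of 1 left hindlimb of a male Sprague Dawley rat. The skin is described as removed. There were 3 untreated rats at postnatal day 1 (P 1d) and 3 untreated rats at 6 to 8 weeks (P 6-8w), with no transgene or agent in either group. Values are log2 signals, so that a difference of 1 is a 2-fold change, and differences are P 6-8w minus P 1d. A gene was called where limma, a linear model fitted over all genes, gave it a p under 0.05 after Benjamini-Hochberg adjustment and its signal changed more than 2-fold.

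Collagen chains are modified inside the endoplasmic reticulum (ER) before they fold into a triple helix. Prolyl 4-hydroxylase, built from an alpha subunit that carries the active site (P4ha1, P4ha2 or P4ha3) and the beta subunit P4hb, makes the hydroxyproline that keeps the helix stable at body temperature. Lysyl hydroxylases (Plod1, Plod2, Plod3) make hydroxylysine, the anchor for collagen sugars and for the crosslinks between molecules; Plod2 acts on the telopeptides, the short ends where crosslinks form. P3h1, Crtap and Ppib form a complex that hydroxylates single prolines at another ring position and helps the chains to fold. All of these steps are needed in a tissue that, like tendon, is built of type I collagen.

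Most of the members had lower signals in the older tendons, and members of the same enzyme family differed from each other in this. P4ha3, P4hb, Plod1, P3h1, Crtap and Ppib, 6 of the 9 measured, were lower at P 6-8w, and none was called higher. Of these, P4hb and Crtap had differences above 0 under quantile normalization, and with P3h1 also under a centring on the brighter genes that shifted all genes upwards alike. P4ha1 and Plod2 had higher mean signals at P 6-8w but did not pass the test, and P4ha2 differed by less than 2-fold. Of all genes, 16.8% were called lower and 2.46% higher. The members were brighter than most genes, with mean signals from 5.88 to 11.91, and among the 6121 genes in that range 52.6% were called lower and 1.81% higher. The median difference was -1.59 over the 9 members, 0.04 over all genes and -1.09 over the genes in the same range. Read against that range, 6 of 9 lower is near the background. In tissue RNA, fewer cells that express a gene and less of its RNA per cell cannot be told apart.

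**Figure D1:**
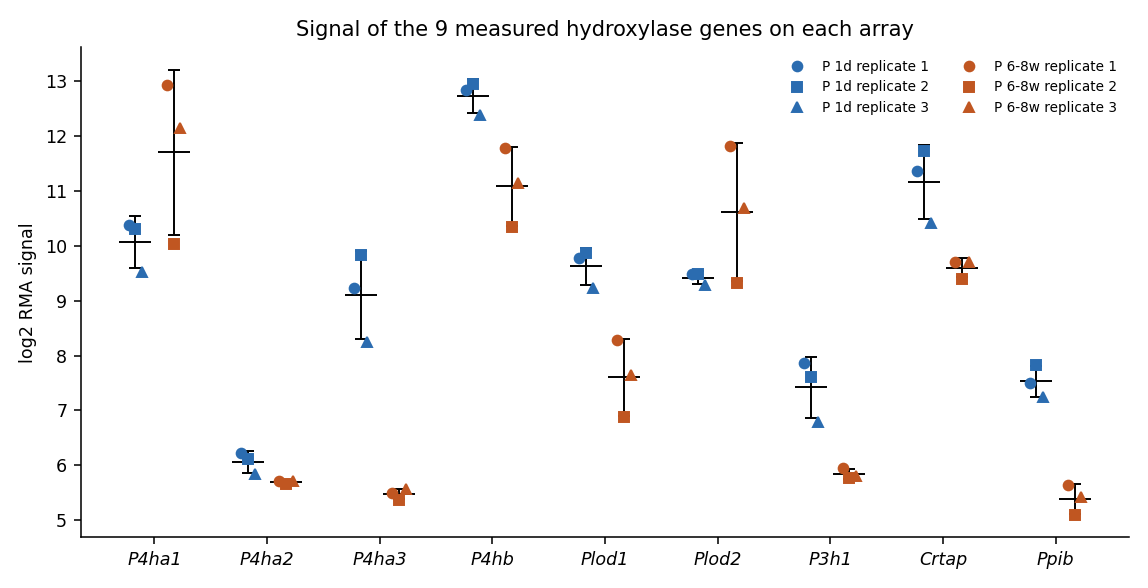
Log2 RMA signal (vertical axis) of the 9 measured genes on each array, with P 1d in blue and P 6-8w in orange, a marker shape for each replicate, and bars for the mean and SD (n = 3). All genes but P4ha1 and Plod2 separate by age, with the widest gaps for P4ha3, Ppib and Plod1. P4ha1 and Plod2 are high on P 6-8w replicates 1 and 3 and at P 1d levels on replicate 2.

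Several facts of the arrays bear on these values. Rows at the top of the scale shared a ceiling from 19.56 to 19.79, and no member was near it. Towards the low end, P4ha2, P4ha3, P3h1 and Ppib had signals of 5.09 to 5.94 at P 6-8w. The median of all named genes on those arrays was 4.75 to 4.79. The part of low signal in the size of their differences was not tested. No source used here says which step gave so wide a scale, on which the size of each difference may depend. Tendon markers were mixed: of 7 listed, all measured, none was called, Dcn (decorin) was bright at 18.44 ± 0.66 at P 1d and 19.06 ± 0.18 at P 6-8w (SD, n = 3), and the tendon transcription factor genes Scx and Mkx stood at 4.53 and 4.82 at P 1d, close to the median of all named genes on those arrays (4.61 to 4.66). Epidermal markers (7 of 8 measured) had mean signals of 10.18 and 12.03 on P 1d replicates 1 and 3 and 4.21 on replicate 2, against 4.51 to 4.86 at P 6-8w. The high signals on replicates 1 and 3 stand beside a description of the skin as removed, and their source was not tested. Skeletal muscle markers (9 of 9) had means of 15.30 to 15.66 at P 1d and 11.17 to 13.12 at P 6-8w. Of these, 6 were called lower and 1 higher (16.8% and 2.46% of all genes). The myosin genes among them went both ways, with differences of -10.55 for Myh3, -8.94 for Myh8 and 8.31 for Myh4. The mean is thus not a measure of muscle content alone. Adipocyte markers (5 of 5) had means of 5.23 to 5.74 at P 1d and 7.02 to 8.66 at P 6-8w. The part of these tissues in the results below was not tested.

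Among the alpha subunits of prolyl 4-hydroxylase, P4ha3 had the largest difference. Its signals were 9.23, 9.83 and 8.25 in neonatal tendons against 5.50, 5.37 and 5.56 at P 6-8w. The groups lay apart by at least 2.69, and the 3 older tendons were nearly alike while the neonatal ones spread over more than 1 unit. The P 6-8w signals were dim, below those of P4ha2 on the same arrays (5.71, 5.65 and 5.71). Whether low signal set their small spread was not tested. The log2 difference was -3.63 (standard error 0.40, adjusted p = 0.00158 from limma), a 12.4-fold lower signal. P4ha3 kept its call under all 18 alternative settings.

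P4ha1, the alpha subunit found in most cell types, had a higher mean at P 6-8w that did not pass the test. Its signals were 10.38, 10.30 and 9.52 at day 1 against 12.94, 10.03 and 12.16 at P 6-8w. Replicates 1 and 3 of P 6-8w stood above every neonatal array, and replicate 2 lay within the neonatal range. The difference of 1.64 had a 95% interval from -0.32 to 3.61 (adjusted p = 0.124 from limma). Without P 6-8w replicate 2 it was 2.48 and was called higher (adjusted p = 0.00993 from limma), in a comparison where 2.58% of all genes were higher and 15.3% lower. Without P 6-8w replicate 1, its highest array, the difference was 1.03 and was not called (adjusted p = 0.286 from limma), so its size rested on which P 6-8w array was kept. P4ha1 was called higher under 4 of the 18 alternative settings, and 3 of these were scalings.

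P4ha2, an alpha subunit abundant in cartilage and bone, was dim and changed little. Its signals were 6.23, 6.12 and 5.84 at day 1 against 5.71, 5.65 and 5.71 at P 6-8w. The groups did not overlap but were only 0.13 apart at their nearest. The difference was -0.37 (95% interval -0.65 to -0.09), with an adjusted p of 0.0358 from limma and a fold change under 2, so it was not called. Among all genes the groups did not overlap in 68.9%, and in 83.9% of genes in the members' range of signal, so lack of overlap alone says little here. Among the members it held for 7 of 9.

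P4hb, which encodes protein disulfide isomerase and serves as the beta subunit of the enzyme, was lower at P 6-8w. It had 12.85, 12.96 and 12.38 at day 1 against 11.78, 10.34 and 11.15 at P 6-8w. The groups did not overlap, and P 6-8w replicate 2 was again the lowest array. The difference was -1.64 (standard error 0.39, adjusted p = 0.0177 from limma). The call was lost when replicate 1 or 2 of P 1d or replicate 3 of P 6-8w was left out, where limma gave -1.58, -1.53 and -1.67 with adjusted p = 0.0616, 0.0644 and 0.0526. Under quantile normalization the difference was 0.77, in the opposite direction.

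Of the lysyl hydroxylases, Plod1 was lower at P 6-8w and Plod2 was not. Plod1, which hydroxylates lysines of the helical part of the chain, had 9.78, 9.87 and 9.24 at day 1 against 8.28, 6.88 and 7.64 at P 6-8w. Every older array was below every neonatal one. The difference was -2.03 (standard error 0.39, adjusted p = 0.00881 from limma), a 4.08-fold lower signal. Plod2, the telopeptide lysyl hydroxylase, had 9.48, 9.49 and 9.28 at day 1 against 11.83, 9.32 and 10.70 at P 6-8w. As for P4ha1, replicates 1 and 3 were above all neonatal arrays and replicate 2 was within their range. The SD of Plod2 was 0.12 at P 1d and 1.26 at P 6-8w. Its difference of 1.20 had a 95% interval from -0.37 to 2.77 (adjusted p = 0.151 from limma), and without P 6-8w replicate 2 it was 1.85 and was called higher (adjusted p = 0.0179 from limma). Without P 6-8w replicate 1 it was 0.59 and was not called (adjusted p = 0.303 from limma).

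All genes of the prolyl 3-hydroxylase complex were lower at P 6-8w as deposited, although Crtap had a difference of 0.48 under quantile normalization, where P3h1 had -0.71 and was not called. With the arrays centred on the median of the brighter genes (mean signal of at least 8), P3h1 and Crtap had 0.20 and 0.22. This shift moved the median of all genes, most of them dimmer than that, to 1.83. That median is therefore not a background for bright genes such as Crtap. P3h1, the enzyme, had 7.86, 7.61 and 6.79 at day 1 against 5.94, 5.76 and 5.80 at P 6-8w, a difference of -1.59 (standard error, SE, 0.29, limma adjusted p = 0.00719). Crtap, the cartilage-associated protein that holds the complex together, had 11.36, 11.73 and 10.41 at day 1 against 9.70, 9.40 and 9.70 at P 6-8w, a difference of -1.57 (SE 0.35, limma adjusted p = 0.0145). In both genes the neonatal arrays were more spread than the older ones and the groups did not overlap. The second row of Crtap gave a difference of -1.44, in the same direction. Without P 1d replicate 1 Crtap had -1.47 and was not called (adjusted p = 0.0546 from limma), which with P4hb left 4 members lower (15.9% of all genes). Ppib, the ER prolyl isomerase cyclophilin B, had 7.50, 7.83 and 7.25 at day 1 against 5.63, 5.09 and 5.41 at P 6-8w. Its groups were at least 1.62 apart, and its difference of -2.15 (SE 0.20, limma adjusted p = 0.000987) had the lowest adjusted p of the 9 genes.

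**Figure D2:**
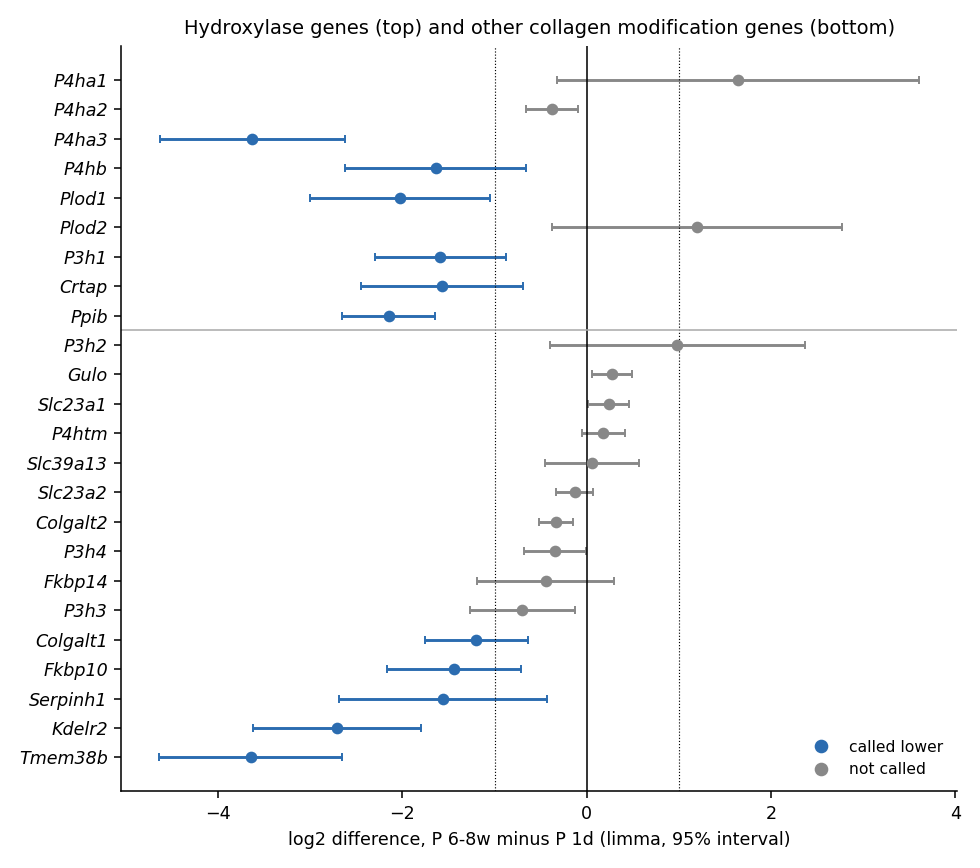
Log2 difference (horizontal axis, P 6-8w minus P 1d, limma, bars for the 95% interval) of the 9 hydroxylase genes above the grey line and of 15 other genes of collagen modification below it, with dotted lines at a 2-fold change. P4ha1, Plod2 and P3h2 have the highest differences, 1.64, 1.20 and 0.98, and intervals that include 0.

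Differences taken within an array do not depend on a shift of the whole array, so genes of one family were also compared in this way, over 7 pairs. P4ha1 minus P4ha3 was 1.15, 0.47 and 1.27 in neonatal tendons against 7.44, 4.66 and 6.60 at P 6-8w. The means of this within-array difference lay 5.27 apart (standard error 0.86), and P 6-8w replicate 2, where P4ha1 itself was within the neonatal range, was also above every neonatal array. Plod1 minus Plod2 was 0.30, 0.38 and -0.04 at day 1 against -3.55, -2.44 and -3.06 at P 6-8w, a change of -3.23 (standard error 0.35). P4ha2 minus P4ha3 changed by 3.25 (standard error 0.38) and P4ha1 minus P4ha2 by 2.02 (standard error 0.87), both without overlap of the groups. Each of these pairs had an exact two-sided permutation p of 0.1, the smallest that 3 arrays against 3 can give, and an adjusted p of 0.14 over the 7 pairs, so that this permutation test cannot pass the threshold with 3 arrays a group. The 95% intervals from the spread between arrays were 2.88 to 7.66 for P4ha1 minus P4ha3, -4.19 to -2.27 for Plod1 minus Plod2, 2.20 to 4.30 for P4ha2 minus P4ha3 and -0.39 to 4.42 for P4ha1 minus P4ha2.

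The genes of the prolyl 3-hydroxylase complex were compared in the same way. P3h1 minus Crtap was -3.50, -4.12 and -3.62 at day 1 against -3.76, -3.64 and -3.90 at P 6-8w. These groups overlapped, with a change of -0.02 (standard error 0.20, exact two-sided permutation p = 0.9). P3h1 minus Ppib changed by 0.56 (standard error 0.27, exact permutation p = 0.2), with overlapping groups, and Crtap minus Ppib by 0.58 (standard error 0.25, exact permutation p = 0.1, adjusted p = 0.14 over the 7 pairs), without overlap. Under quantile normalization P3h1 minus Crtap differed by -1.20, P3h1 minus Ppib by 0.70 and Crtap minus Ppib by 1.90, so that the sizes of these changes depended on the scale. Whether these pairs changed less than those of the other families was not tested.

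**Figure D3:**
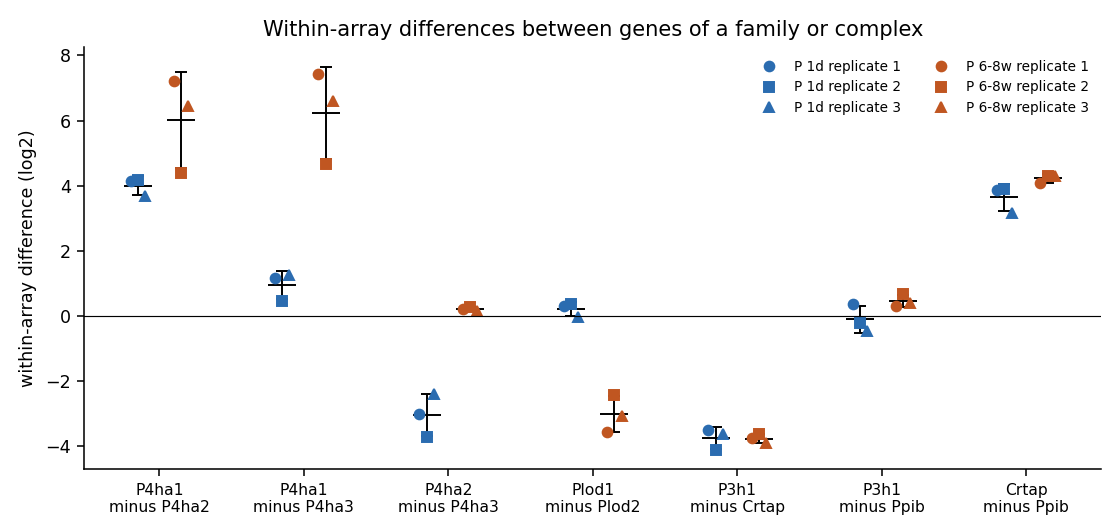
Within-array log2 differences (vertical axis) for the 7 pairs of genes, P 1d in blue and P 6-8w in orange, a marker shape for each replicate, and bars for the mean and SD (n = 3). P4ha1 minus P4ha3 and Plod1 minus Plod2 separate by age on all arrays, while P3h1 minus Crtap overlaps.

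The start regions of P4ha1, P4ha3, Plod1 and Plod2 are shown for the called and the uncalled gene with the larger differences in each family. In 5 of the 7 pairs, others among them, the ages did not overlap. The share for pairs of other genes was not measured, so this count says little. Single genes did not overlap in 68.9% of all genes and in 83.9% of those in the members' range of signal. The sequences shown are therefore examples. Each is the 250 bases before the start of the gene in RefSeq (rat build GRCr8), for which all 10 listed genes matched by symbol. Capitals mark ACGTG or its reverse complement CACGT, a form of the core of the hypoxia response element that is also part of the E-box CACGTG. The other form of this core, GCGTG, was not marked and can be read in the stretches shown of P4ha1, Plod1 and Plod2.
P4ha1 (chr20:27844796-27845045, plus strand): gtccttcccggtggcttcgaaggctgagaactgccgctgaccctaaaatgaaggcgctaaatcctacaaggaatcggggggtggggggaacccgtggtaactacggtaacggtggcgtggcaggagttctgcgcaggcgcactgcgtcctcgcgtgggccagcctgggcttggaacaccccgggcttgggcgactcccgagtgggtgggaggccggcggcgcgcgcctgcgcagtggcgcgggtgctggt
P4ha3 (chr1:164040614-164040863, plus strand): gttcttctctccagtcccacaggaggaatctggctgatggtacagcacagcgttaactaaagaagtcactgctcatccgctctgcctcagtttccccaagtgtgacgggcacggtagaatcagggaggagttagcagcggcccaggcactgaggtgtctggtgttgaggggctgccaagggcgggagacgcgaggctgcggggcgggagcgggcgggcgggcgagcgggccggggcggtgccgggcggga
Plod1 (chr5:163650738-163650987, minus strand): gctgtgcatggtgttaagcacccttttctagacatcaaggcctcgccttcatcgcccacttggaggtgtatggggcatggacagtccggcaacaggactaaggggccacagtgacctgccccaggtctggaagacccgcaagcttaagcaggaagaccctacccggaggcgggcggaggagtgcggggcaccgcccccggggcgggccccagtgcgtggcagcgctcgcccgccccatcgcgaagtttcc
Plod2 (chr8:101964068-101964317, plus strand): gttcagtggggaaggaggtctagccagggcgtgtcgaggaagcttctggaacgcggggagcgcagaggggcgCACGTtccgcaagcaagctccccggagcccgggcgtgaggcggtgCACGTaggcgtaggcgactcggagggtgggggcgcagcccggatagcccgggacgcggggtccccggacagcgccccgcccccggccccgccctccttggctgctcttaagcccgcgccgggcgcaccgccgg

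Plod2 held the marked letters, ACGTG or CACGT, 178 and 133 bases before its start. Plod1 and P4ha3 held none of these in the window. In P4ha1 they were absent from the stretch shown and present once just after the start, at base 12, in tgactgagcgCACGTagcgagagct. Over windows that add the 50 bases after the start, 4 of the 10 genes held them (P4ha1, P4ha2, Plod2 and Ppib), against 19.3% of 33469 promoters. P4ha2, which was not called, held them 133 and 41 bases before its start, and Ppib, which was lower at P 6-8w, held them 204 and 138 bases before. A match of this length is a description of the sequence only.

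The members also shared a pattern among rats of one age. P 6-8w replicate 2 had the lowest P 6-8w signal in all 9 genes. The same array was the lowest of its group for 36.5% of all genes and for 66.5% of genes in the members' range of signal. Its distance from the group mean was greatest for P4ha1 at -1.68. At P 1d, replicate 3 was the lowest array in all 9 genes, against 26.3% of all genes and 27.6% of those in the range, with distances from the group mean of -0.85 to -0.14. This was not particular to the members. Of the P 1d arrays, replicate 3 also had the lowest means of the other modification genes, collagen chains, ER folding genes and tendon markers (6.79, 11.49, 9.54 and 9.75). The mean of the skeletal muscle markers was highest there, at 15.66. Replicate 3 was also the neonatal array with the highest mean of the epidermal markers, and the part of epidermal RNA in its low hydroxylase signals was not tested. Without P 1d replicate 3, 6 members were lower (15.7% of all genes), with a median difference of -1.90. Against P 1d replicate 2 alone, the neonatal array with low epidermal markers, 4 members were lower and none was higher (4.95% and 0.303% of all genes). Plod1 and P4hb then had -2.27 and -1.87 (limma adjusted p = 0.133 and 0.174), larger in size than with all arrays. With 1 neonatal array the spread comes from the P 6-8w arrays alone, so calls kept or lost here do not bear on epidermal RNA.

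**Figure D4:**
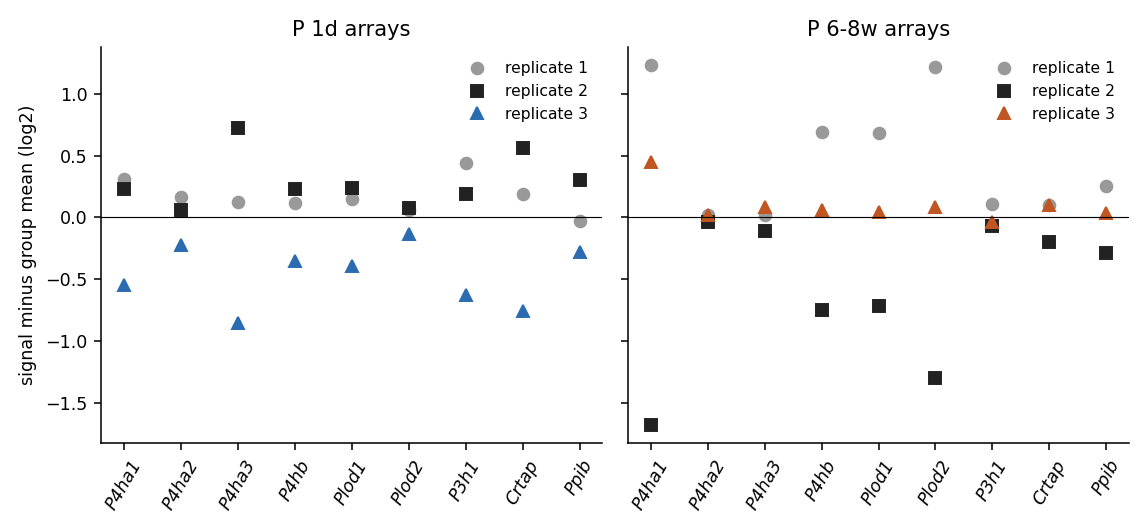
Signal of each gene minus the mean of its age group (vertical axis, log2) for the 3 P 1d arrays (left) and the 3 P 6-8w arrays (right), a marker for each replicate. P 1d replicate 3 and P 6-8w replicate 2 are the lowest marker for all 9 genes of their group.

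The P 6-8w arrays on which P4ha1 and Plod2 were high were also those where the tendon gene Tnmd was higher than on replicate 2. Tnmd, which encodes a tendon membrane protein and was picked after its values were seen, had 13.47, 9.36 and 12.37 on the P 6-8w arrays. The mean of the 7 tendon markers was lowest on replicate 2, at 9.16, but not all of them were low there. Dcn had 19.26, 18.97 and 18.94, and Fmod (fibromodulin of the tendon matrix, also picked after its values were seen) had 8.72, 8.72 and 8.71. The muscle markers had means of 12.94, 11.17 and 13.12 in order of replicate. Whether the tissue content of this sample set the hydroxylase values was not tested.

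The calls of all members but P4ha3 differed between scalings of the arrays. After quantile normalization over the named genes, P4ha1 and Plod2 were higher, by 3.81 and 3.15 (adjusted p = 0.00447 and 0.00378 from limma), where 4.05% of all genes were. P4ha3 and Ppib were lower, at -2.60 and -1.41 (limma adjusted p = 0.00504 and 0.00655), where 4.49% of all genes were. Plod1, P3h1, Crtap and P4hb were then not called, and P4hb and Crtap had differences above 0 (0.77 and 0.48). With arrays shifted to a common mean of 10 reference genes, the median difference of all genes moved to 1.07, and 55.2% of genes were higher and 5.94% lower. P4ha1 and Plod2 were then higher, by 2.67 and 2.23, while P4ha3, Plod1 and Ppib were lower, at -2.60, -1.004 and -1.12. Centred on the brighter genes, which added the same amount to every gene, moved the median of all genes to 1.83 and called 78.2% of them higher and 2.68% lower, P4ha1, Plod2 and P4ha2 were higher and P4ha3 alone was lower. Under quantile normalization P4ha1 minus P4ha3 changed by 6.41 and Plod1 minus Plod2 by -3.60, in the same directions as in the deposited values. Plod1 kept a difference below 0 but was not called under quantile normalization (-0.45, adjusted p = 0.233 from limma) or centred on the brighter genes (-0.24, adjusted p = 0.444 from limma). Ppib was not called under the latter (-0.36, adjusted p = 0.243 from limma).

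**Figure D5:**
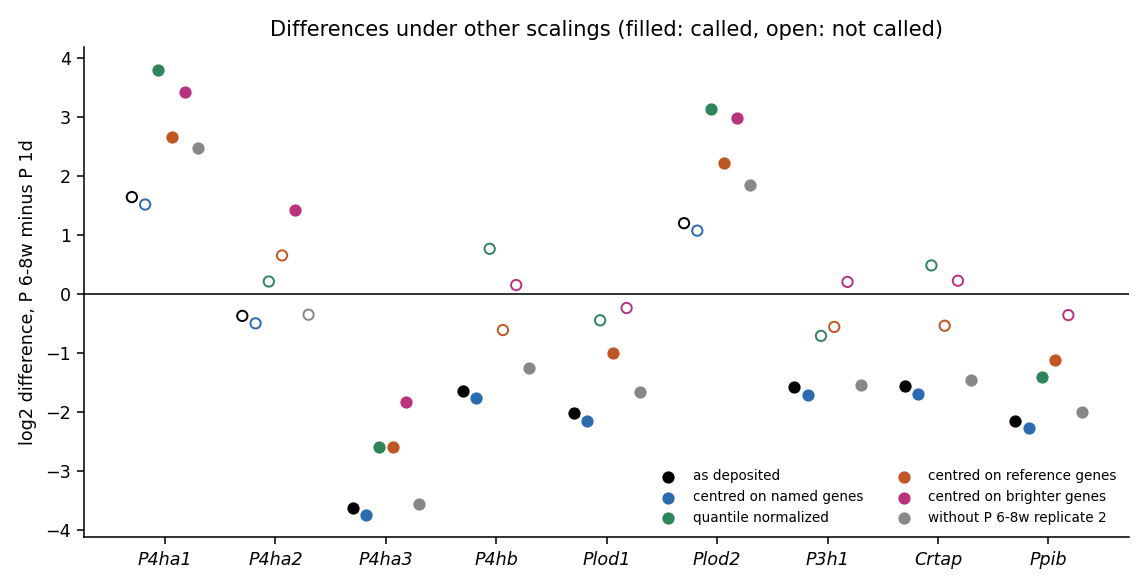
Log2 difference (vertical axis, P 6-8w minus P 1d) of each gene in the deposited values, under 4 other scalings of the arrays and without P 6-8w replicate 2, with filled points for calls by limma. P4ha1 and Plod2 lie above 0 and P4ha3 below 0 in all of them, whereas P4ha2, P4hb and Crtap cross 0, and P3h1 does so only when centred on the brighter genes, a shift of all genes.

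Among 15 further genes of collagen modification, all measured, 5 were called lower at P 6-8w, 0 higher and 10 did not pass, with a median difference of -0.34. The share called lower lies between the 16.8% of all genes and the 52.6% of genes in the hydroxylases' range of signal. Those that did not pass had differences from -0.70 (P3h3) to 0.98 (P3h2). Tmem38b, the ER cation channel TRIC-B, had 9.51, 10.44 and 10.12 at day 1 against 6.61, 5.66 and 6.87 at P 6-8w (difference -3.64, adjusted p = 0.0015 from limma). Kdelr2, a receptor that returns ER proteins such as P4hb from the Golgi, had a difference of -2.71, and Serpinh1, the collagen chaperone HSP47, of -1.56 (adjusted p = 0.00288 and 0.0318 from limma). Fkbp10, a prolyl isomerase that works with lysyl hydroxylation of telopeptides, had -1.44, and Colgalt1, which adds galactose to hydroxylysine, -1.20 (adjusted p = 0.0102 and 0.00811 from limma). Their groups did not overlap.

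P3h2, the prolyl 3-hydroxylase known for basement membrane collagen, resembled P4ha1 and Plod2. It had 8.43, 8.50 and 8.86 at day 1 against 10.67, 8.50 and 9.57 at P 6-8w, with replicate 2 at the neonatal level. Its difference of 0.98 was not called (adjusted p = 0.174 from limma), and without P 6-8w replicate 2 it was 1.52 and was called higher (adjusted p = 0.0322 from limma). Without P 6-8w replicate 1 it was 0.44 (adjusted p = 0.353 from limma). P3h3, its relative, had a difference of -0.70 (adjusted p = 0.0459 from limma, fold change under 2), and P3h4, which supports lysyl hydroxylation, -0.34. Gulo, the vitamin C synthesis gene of rats, and the vitamin C transporter gene Slc23a1 were dim, with mean signals of 3.75 and 3.88, so that little can be read from them.

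The collagen chains are the substrates of these enzymes. Of 16 collagen chain genes, all measured, 9 were called lower at P 6-8w, 0 higher and 7 did not pass, with a median difference of -1.43. This share is close to the 52.6% called lower among all genes in the hydroxylases' range of signal, and above the 16.8% of all genes. Several of the 16 were brighter or dimmer than that range, so it is not a matched background for them. Col1a1 and Col1a2, the chains of type I collagen, were at the ceiling on all 6 arrays. They could therefore not be called, and no ratio of hydroxylase to type I collagen signal can be read. Col3a1, the type III chain, had 18.11, 17.97 and 17.12 at day 1 against 16.32, 14.47 and 14.79 at P 6-8w (difference -2.54, adjusted p = 0.0137 from limma). Col14a1 and Col12a1, chains on the fibril surface, had -6.28 and -5.56, and Col5a2, of the fibril core, -3.19 (adjusted p = 0.00284, 0.000755 and 0.00754 from limma).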

How the data were processed

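Gene expression was measured in 6 Achilles tendons on Affymetrix Rat Transcriptome Arrays. The authors summarised the scans by RMA under its defaults, with global scaling, and the deposited values are log2 signals with 2 decimals. A second deposited table held the same values (413052 of 413052 equal). No source used here gives the annotation build. Depth does not apply to arrays, and their number limits the precision.

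Gene names came from GEO's platform annotation, and Entrez IDs were used to update symbols (1 changed). Of 68842 rows, 23446 named 1 gene. Where a gene had several rows, the brightest over the 6 arrays was used. Ages were compared with limma 3.58.1 in R 4.3.3 without covariates, which was tested on simulated data. Members and gene lists were chosen with earlier results of these data known. Named genes are the members, genes of the modification list, up to 4 called genes with the largest differences of other lists, the type I and III collagens and the brightest gene of each marker list. Scx, Mkx, Tnmd, Fmod, Myh3, Myh8, Myh4, Pfkfb3, Ddit4, Egln1, Egln3 and Pdk1 were added after their values were seen. Pairs of genes were compared within arrays by exact permutation tests; pairs with Plod3 were not run. Alternatives were other tests, filters, scalings and omitted arrays, the replicate number as a block, and, added after seeing the data, P 1d replicate 2 alone. Of 12 reference genes, 10 were measured.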

Additional observations from a re-analysis of the deposited data

How the results depend on the processing

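Of the hydroxylase genes, 6 were called lower and none higher in the deposited values, with a median difference of -1.59, and 4261 genes were called in all. Leaving out single arrays gave 4 to 6 lower members, 0 to 2 higher members (2 without P 6-8w replicate 2), medians from -1.90 to -1.47 and 3791 to 4684 calls. Centred on the brighter genes, which moved the median of all genes to 1.83, 1 member was lower and 3 were higher, the median was 0.20, and 17879 genes were called. P4ha2, P4hb, P3h1 and Crtap then had differences of 1.42, 0.15, 0.20 and 0.22. Centred on the reference genes, 3 were lower and 2 higher, with a median of -0.56 and 13498 calls, and P4ha2 had 0.65. Quantile normalization gave 2 lower, 2 higher, a median of 0.21 and 1885 calls, and P4ha2, P4hb and Crtap had 0.21, 0.77 and 0.48. The cause of these changes was not tested. Without a fold limit 12005 genes were called, and against P 1d replicate 2 alone 1160, from fewer arrays.

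The replicate numbers did not pair the rats (correlations of deviations of 0.01, -0.11 and 0.05), and with the replicate block 6 members were lower and 4148 genes were called. Precision is limited by 3 arrays a group.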

Other observations

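Other genes of the ER and of the hypoxia response were measured beside the hydroxylases. Of 15 ER folding genes, all measured, 5 were lower at P 6-8w and none was higher, with a median difference of -1.05, a share between the 16.8% of all genes and the 52.6% of genes in the hydroxylases' range of signal. Pdia6, a protein disulfide isomerase related to P4hb, had 12.72, 12.88 and 12.35 at day 1 against 9.72, 7.98 and 8.79 at P 6-8w, a difference of -3.82 (adjusted p = 0.00196 from limma). Ero1a, the oxidase that recharges protein disulfide isomerase, had a difference of -1.57, and Ppic, a cyclophilin related to Ppib, of -1.96 (adjusted p = 0.00152 and 0.00996 from limma). Of 17 other genes known as targets of hypoxia-inducible factor, all measured, 3 were called lower, 0 higher and 14 did not pass. Their median difference was -0.03. The share called lower was 16.8% of all genes and 52.6% of genes in the hydroxylases' range of signal, though some of the 17 were dimmer than that range. The glycolytic genes Eno1, Ldha and Pgk1 had -2.45, -1.95 and -1.36 (limma adjusted p = 0.00119, 0.00614 and 0.0129). Pfkfb3 and Ddit4, named after their values were seen, had 0.82 and 0.47 (limma adjusted p = 0.0149 and 0.0152), below the fold limit. Others below the limit went the opposite way and were also named after their values were seen. Egln1, Egln3 and Pdk1 had -0.95, -0.92 and -0.76 (limma adjusted p = 0.0164, 0.0210 and 0.00368).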
